A study of Mus musculus with 7 samples.

Results

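The libraries described here were made from the Oct4GFP+ and the Oct4GFP- cells of one culture condition, the chemically defined 5C medium. They are 2 of the 7 libraries of the series and were chosen by their titles, which name the medium and the sort gate. The starting cells were mouse embryonic fibroblasts (MEFs) of the OG2 strain, recorded at passage 0, which carry an egfp reporter driven by the Oct4 promoter without its proximal enhancer (GOF18ΔPE). Both groups therefore carried the same transgene and had received the same retroviruses for Oct4, Sox2, Klf4 and c-Myc. 5C medium is built on DMEM/F12 with N2, bFGF, β-mercaptoethanol, Vc and LIF. On day 15 of reprogramming the cells were separated by FACS into those with and without GFP, and 1 mRNA-Seq library was made from each. The matching pair sorted from mES medium (mES-Oct4GFP+ and mES-Oct4GFP-) is used below only where the 5C pair differed from it. The remaining 3 libraries came from stem cell lines and are cited for single genes. They are a naive and a primed line derived from 5C-Oct4GFP+ cells and the primed R1 line. These lines were recorded at a later passage than the sorted cells, so they differ from them in culture and passage as well.

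During reprogramming a fibroblast loses its mesenchymal programme, gains cell contacts of an epithelial kind and, in a minority of cells, switches on the endogenous pluripotency network around Oct4, Sox2 and Nanog. A GFP reporter on the Oct4 promoter marks the cells in which that network has become active, whereas Oct4GFP- cells of the same dish include cells that stalled on the way. Embryonic pluripotency itself runs through a naive state, held by factors such as Esrrb, Klf2 and Zfp42, and a later formative or primed state, marked by Otx2 and Dnmt3b. The design asks which transcripts separate the cells on either side of this gate.

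The 5C-Oct4GFP+ library held 10443952 expected counts and the 5C-Oct4GFP- library 8346747, inside the range of 6108252 to 11496615 over all 7 libraries. Levels are given in TPM, a relative abundance that is scaled per transcript length and to the library. Differences are those of log2(TPM + 1), Oct4GFP+ minus Oct4GFP-. A gene was counted as higher or lower when it differed by at least 2-fold on that scale, among the 12124 genes with at least 5 TPM in either library of the pair. A gene that reached 5 TPM only in the library where it was high was more likely to be called, so counts over lists with many such genes are descriptions. Where a pair of levels is written as one against another, the Oct4GFP+ library comes first. With 1 library per group there is no replicate spread and no test. The 95% intervals beside ratios of TPM are exact Clopper-Pearson intervals on the counts and cover counting error only, and a gene without counts is set against a floor of 3 counts.

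More genes were lower than higher in 5C-Oct4GFP+ cells. In all, 941 genes (7.76% of those measured) reached 2-fold on the higher side and 2517 (20.8%) on the lower side. At 8-fold the numbers were 173 and 218. Genes at 5 TPM or more on one side and under 1 TPM on the other numbered 131 for 5C-Oct4GFP+ and 305 for 5C-Oct4GFP-. The median difference over all measured genes was -0.21. It moved to -0.03 with median-ratio size factors and to 0.06 with TMM factors, and the share of lower genes among all those called moved from 72.8% to 64.1% and 58.4%. Differences below are to be read against this centre. The median difference also moved with transcript length, from -0.03 in the 20% of genes with the shortest transcripts to -0.41 in the 20% with the longest, and with level, from -0.67 in the lowest 20% to 0.04 in the highest. The part of length and level in the counts of lower genes was not tested.

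**Figure D1:**
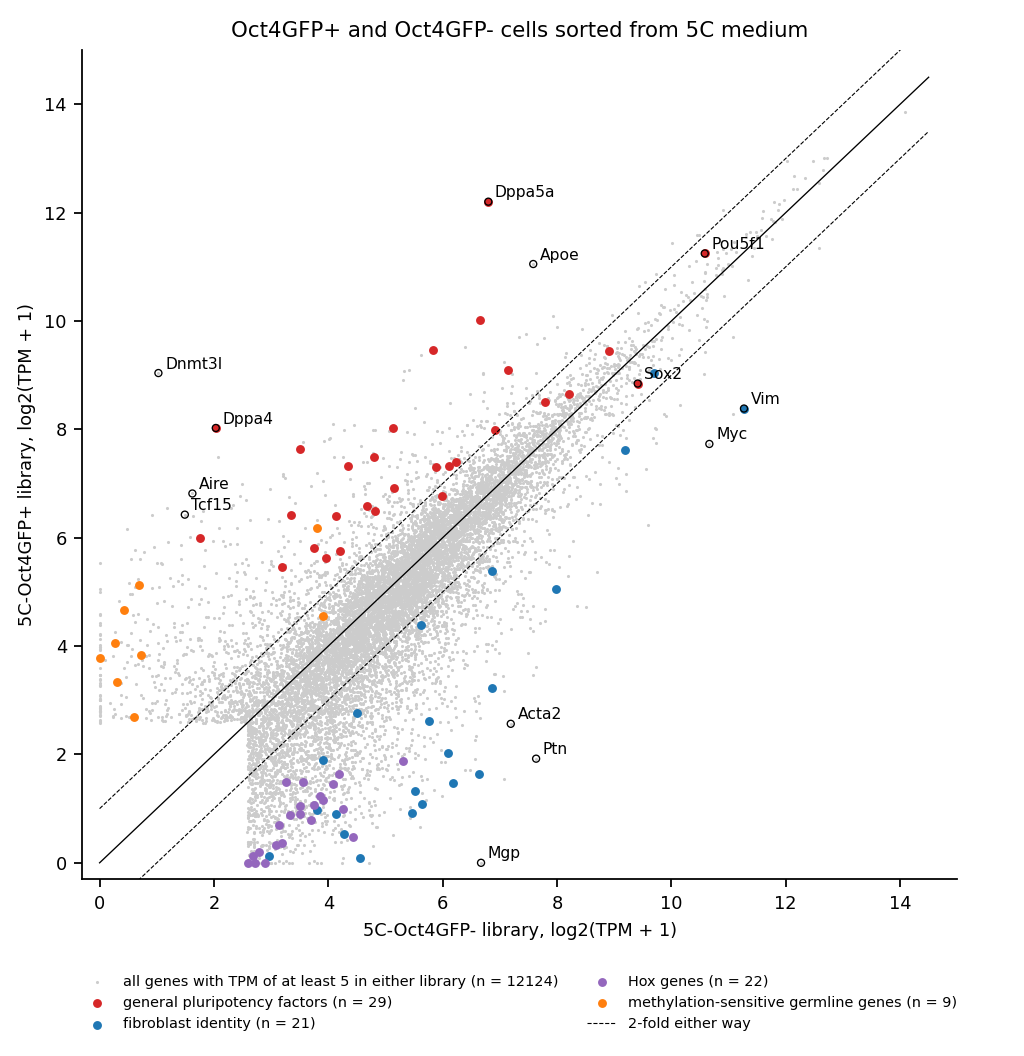
Level of each gene in 5C-Oct4GFP- cells (x axis) and 5C-Oct4GFP+ cells (y axis), both in log2(TPM + 1), 1 library each. Each grey point is 1 of 12124 genes; coloured points are members of 4 gene lists, circled points are named genes and dashed lines mark 2-fold. Pluripotency factors lie on or above the diagonal apart from Sox2, while fibroblast genes lie below it and Hox genes lie near the bottom edge.

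The retroviral factors themselves divided the gate unevenly. Oct4 (Pou5f1), the gene that the reporter stands for, was at 2429 TPM in Oct4GFP+ and 1534 TPM in Oct4GFP- cells, a ratio of 1.58 (1.54 to 1.63), which is below 2-fold. Sox2, its partner in the pluripotency network, was the lower of the pair in Oct4GFP+ cells, with 459 against 679.9 TPM and a difference of -0.56. Klf4, a zinc finger factor also used by naive ES cells, and Myc, a driver of growth and proliferation, were at least 2-fold lower, Klf4 at 522 against 1512 TPM and Myc at 211 against 1622 TPM. The 7.67-fold ratio for Myc (5C-Oct4GFP- over 5C-Oct4GFP+, 7.28 to 8.08) was the widest of the 4. Reads from a retrovirus and from the endogenous gene fall into the same gene-level count, so these 4 levels are sums of both sources and cannot be divided here.

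General pluripotency factors were higher in 5C-Oct4GFP+ cells almost throughout. Of 29 members, all measured, 23 were at least 2-fold higher and none 2-fold lower, with a median difference of 1.91 against -0.21 for all genes. Dppa4 and Dppa2, paired chromatin proteins of early embryonic cells, were at 259.7 against 3.09 TPM and 63.2 against 2.37 TPM respectively. Dppa5a, an RNA-binding protein of pluripotent cells, was one of the most abundant transcripts of the Oct4GFP+ library at 4714 TPM, 42.7-fold (37.8 to 48.5) above its 110.3 TPM in 5C-Oct4GFP- cells. As a check of the gate, 10 of 12 pluripotent cell markers, which overlap this list, were at least 2-fold higher and none was 2-fold lower. The Oct4-Sox2 target Utf1 stood at 1034 against 99.9 TPM, the Nodal co-receptor Tdgf1 at 709.5 against 55.8 TPM and the growth factor Fgf4 at 199 against 10.3 TPM.

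Transcripts of this network were also present in 5C-Oct4GFP- cells. Of the 29 general factors, 27 were at 5 TPM or more in them, and none was under 1 TPM. Nanog, a core factor, was at 253 TPM in Oct4GFP+ and 119.5 TPM in Oct4GFP- cells, a ratio of 2.12 (1.97 to 2.27). Tdh, the threonine dehydrogenase on which mouse ES cells depend, was at 700.3 against 481 TPM, Epcam, an adhesion molecule, at 404 against 294 TPM, and the RNA-binding protein Lin28a at 109 against 62.2 TPM. These genes were below 2-fold, as were L1td1 (363 against 221 TPM), Pou5f1 and Sox2. In mES medium Nanog was at 697 against 17.1 TPM and Tdh at 640.3 against 34.6 TPM in mES-Oct4GFP+ and mES-Oct4GFP- cells, so the gate separated both genes more widely there. In a bulk library, fewer cells expressing a gene and less RNA of it per cell cannot be told apart.

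Factors of the naive state were likewise higher in 5C-Oct4GFP+ cells, although not all of them. Of 19 members 18 were measured, and 14 were at least 2-fold higher with a median difference of 2.80. Esrrb, a nuclear receptor that holds ES cells in self-renewal, was at 229.7 against 15.3 TPM, Zfp42 (Rex1) at 219 against 14.1 TPM and Klf2 at 254 against 27.2 TPM. Dppa3 (Stella), a maternal factor that guards against DNA methylation, was at 71.2 against 4.32 TPM, and Prdm14, which represses the de novo methyltransferases, at 20.5 against 1.88 TPM. The exceptions were Nr5a2 (49.4 against 53.9 TPM), Gbx2 (57.8 against 46.96 TPM) and Tet2 (15.9 against 15.5 TPM), whose levels were close in both libraries, and the retrovirally delivered Klf4, the only member that was 2-fold lower. Several naive genes had higher levels among the Oct4GFP+ cells of mES medium, among them Dppa3 at 494 TPM and Tfcp2l1 at 194 TPM in the latter against 29.1 TPM in the former.

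Formative and primed factors were divided in 5C medium, with more of them on the Oct4GFP+ side. Of 22 members 20 were measured, 12 of them above 0 and 8 below. At 2-fold 9 were higher and 3 were lower. The median difference was 0.83 over the measured members and 0.42 over all 22. Otx2, the factor that moves cells out of the naive state, was at 189 TPM in Oct4GFP+ and 26.5 TPM in Oct4GFP- cells, a ratio of 7.15 (6.15 to 8.36). Foxd3 was at 84.7 against 9.16 TPM, Nodal, the ligand of the primed state, at 40.3 against 4.75 TPM, Dnmt3b, a de novo DNA methyltransferase, at 366 against 104 TPM, and Zic2 at 103 against 37.5 TPM. The 3 lower members were genes of later lineages. T (Brachyury), which marks mesoderm and the primitive streak, was at 0.24 against 26.6 TPM, Foxa2, an endoderm factor, at 0.25 against 6.22 TPM, and Sox1, an early neural factor, at 2.94 against 15.5 TPM. Eomes, a mesendoderm factor, was on the Oct4GFP+ side at 7.49 against 3.54 TPM but below 2-fold. Fgf5, a classical mark of the primed epiblast, was at 11.7 against 18.1 TPM and did not reach 2-fold. Pou3f1 was close on both sides (32.1 against 30.15 TPM). Sox3 (8.27 against 12.47 TPM), Sall2 (15.82 against 24.1 TPM) and Etv4 (52.58 against 92.11 TPM) were on the Oct4GFP- side below 2-fold.

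**Figure D2:**
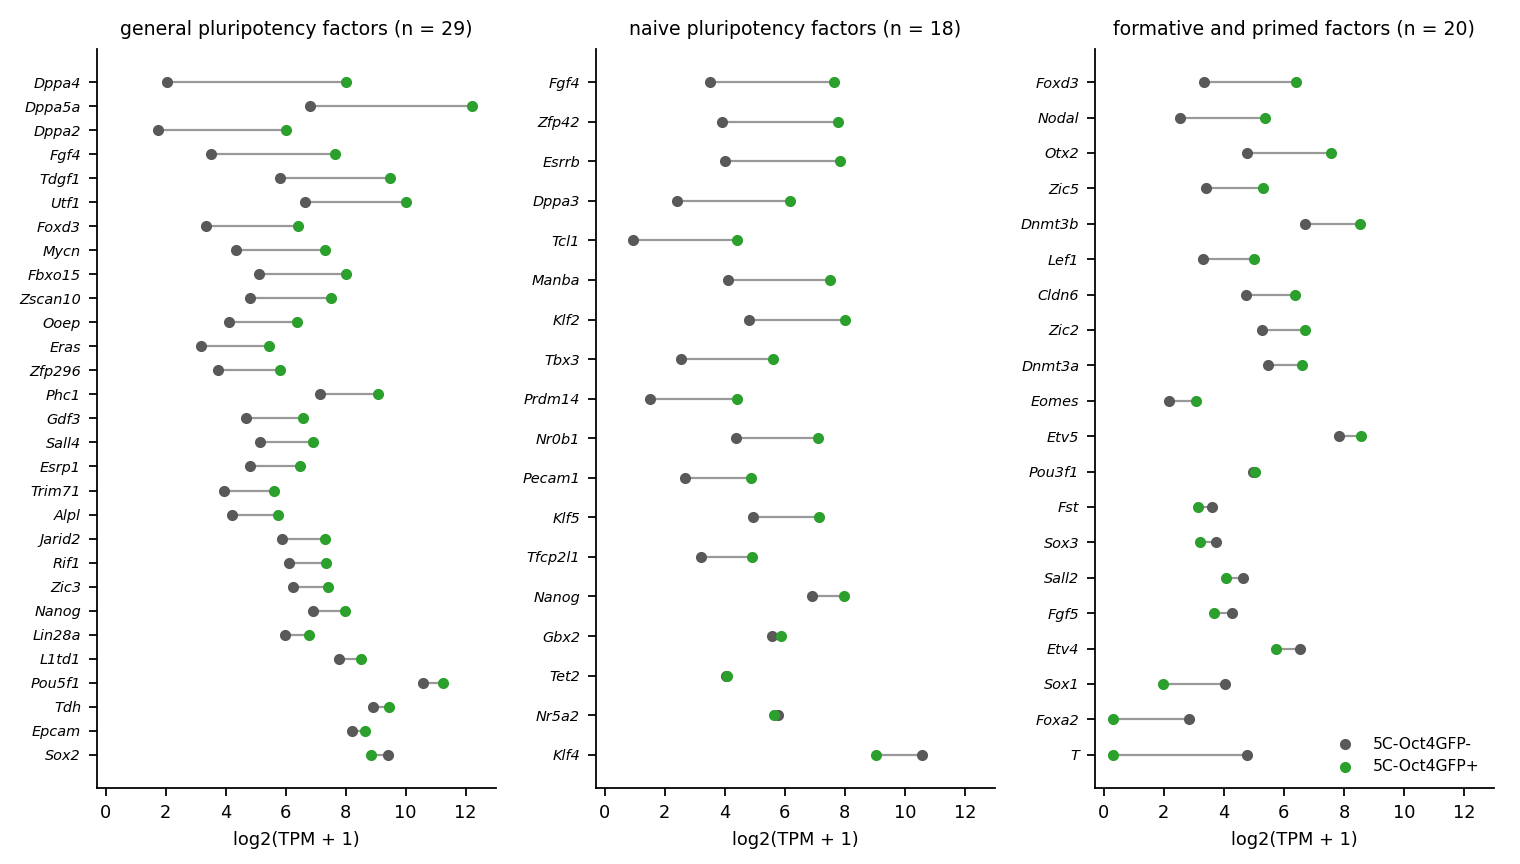
Levels of pluripotency factors in log2(TPM + 1) (x axis) in 5C-Oct4GFP- cells (grey points) and 5C-Oct4GFP+ cells (green points), 1 library each, for measured members of 3 lists ordered by difference. Green points lie to the right for 28 of 29 general factors, with Sox2 as the exception, and for Otx2, Nodal and Foxd3; they lie to the left for Klf4, T, Foxa2 and Sox1.

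Dnmt3l showed the largest difference of any measured gene. Dnmt3l encodes the catalytically inactive partner of the de novo DNA methyltransferases, with roles in germ cells and early embryos. It was at 525 TPM in Oct4GFP+ and 1.04 TPM in Oct4GFP- cells, from 4731 and 7 expected counts, a ratio of 505 (246 to 1263). In no other library of the series did it pass 20.2 TPM, the level in the naive line derived from 5C-Oct4GFP+ cells, and in mES-Oct4GFP+ cells it was at 5.31 TPM. The level in 5C-Oct4GFP+ cells was therefore the highest of the 7 libraries.

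Other genes near the top of the ranking were likewise highest in 5C-Oct4GFP+ cells among the 7 libraries. Aire, the transcriptional regulator that thymic epithelium uses to display self antigens, was at 112 against 2.08 TPM, with 0 against 1.42 TPM in the mES pair. Aire lies next to Dnmt3l on the opposite strand of chromosome 10, 67 of its 3825 annotated exon bases overlap exons of Dnmt3l, and the counting did not use strand, so part of its reads could belong to the neighbour. Tcf15, a bHLH factor of paraxial mesoderm that is also expressed as cells leave the naive state, was at 85.00 against 1.81 TPM and at 2.65 against 4.25 TPM in the mES pair. The ubiquitin-conjugating enzyme gene Ube2dnl1 was at 32.04 TPM in 5C-Oct4GFP+ cells without a count in 5C-Oct4GFP- cells, at least 30.5-fold higher, and at 0.90 against 0.34 TPM in the mES pair. Outside the sorted pairs, Tcf15 reached 16.1 TPM in the primed R1 line, Ube2dnl1 5.36 TPM in the naive line and Aire no more than 0.52 TPM.

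The remaining genes with large positive differences included testis-type genes and noncoding RNAs of ES cells. Cyct, the testis form of cytochrome c, was at 70.2 against 0.40 TPM, Rbmxl2, a germ cell RNA-binding protein, at 179 against 3.18 TPM, and the melanoma antigen family gene Mageb16 at 52.4 against 0.71 TPM. Cyct and the transcript EU599041 (47.97 against 0.46 TPM) rest on about 1 count in 5C-Oct4GFP- cells, and their intervals are correspondingly open, 30.96 to 6909.9 for the 175-fold ratio of Cyct. Lncenc1, a long noncoding RNA of naive ES cells, was at 84.95 against 0.88 TPM. Nphs1 (nephrin) was at 45.3 TPM with no count in 5C-Oct4GFP- cells, at least 101-fold higher. Zfp987 (92.5 against 1.26 TPM) and Gm10772 (31.04 against 0 TPM) belong to repeated gene families whose reads may be shared with close copies, so their levels are uncertain.

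Germline genes that DNA methylation keeps silent in somatic cells followed the same direction at low levels. Of 26 such genes in the tables, 9 reached 5 TPM in 5C-Oct4GFP+ cells and 2 did so in 5C-Oct4GFP- cells. The median difference over all 26, measured or not, was 1.28. Rhox5, a homeobox gene of the X chromosome, was at 71.3 against 12.9 TPM, Tdrd12, a piRNA pathway protein, at 33.95 against 0.61 TPM, and the testis tubulin Tuba3a at 24.4 against 0.34 TPM. Hormad1 and Sycp3, structural proteins of meiotic chromosomes, were at 15.7 against 0.21 TPM and 13.4 against 0.66 TPM. Mael, which acts in transposon silencing, was at 12.7 TPM without a count in 5C-Oct4GFP- cells. Other members were far below their levels in mES-Oct4GFP+ cells: Dazl, a germ cell RNA-binding protein, was at 9.10 TPM in 5C-Oct4GFP+ cells and at 191 TPM in mES-Oct4GFP+ cells, and Tex101 was at 0.18 and 24.5 TPM. Rhox2a was at 0.49 and 24.9 TPM in the same order. Mael went against this order, at 12.7 and 3.06 TPM.

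Promoters of such germline genes are known for the E-box CACGTG, which is the same on both strands, and 4 windows are printed to show where it lies in genes that were higher in 5C-Oct4GFP+ cells. Each window holds the 250 bases before an annotated RefSeq start on GRCm38.p6, 5′ to 3′ on the gene's strand, in lower case with the E-box in capitals. They are chr3:95559427-95559676 (plus strand) for Hormad1, chr10:88459337-88459586 (plus strand) for Sycp3, chr1:166238745-166238994 (minus strand) for Mael and chr10:78049592-78049841 (plus strand) for Dnmt3l. The Dnmt3l window belongs to a start inside the gene, and the windows of its other annotated starts hold no E-box.
Hormad1: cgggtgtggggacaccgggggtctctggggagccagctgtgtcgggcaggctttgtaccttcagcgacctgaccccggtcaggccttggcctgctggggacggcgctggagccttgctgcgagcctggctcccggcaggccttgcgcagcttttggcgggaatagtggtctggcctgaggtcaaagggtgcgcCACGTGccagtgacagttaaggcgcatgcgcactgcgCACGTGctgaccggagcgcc
Sycp3: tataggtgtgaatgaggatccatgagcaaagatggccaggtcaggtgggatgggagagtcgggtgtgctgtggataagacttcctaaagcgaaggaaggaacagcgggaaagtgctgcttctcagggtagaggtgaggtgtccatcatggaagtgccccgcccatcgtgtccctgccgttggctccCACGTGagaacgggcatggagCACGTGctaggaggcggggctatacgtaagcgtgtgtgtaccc
Mael: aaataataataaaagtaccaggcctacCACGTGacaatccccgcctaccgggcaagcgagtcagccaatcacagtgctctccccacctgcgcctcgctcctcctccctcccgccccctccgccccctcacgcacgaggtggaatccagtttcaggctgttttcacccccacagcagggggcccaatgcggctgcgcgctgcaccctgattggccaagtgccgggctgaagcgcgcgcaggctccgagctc
Dnmt3l: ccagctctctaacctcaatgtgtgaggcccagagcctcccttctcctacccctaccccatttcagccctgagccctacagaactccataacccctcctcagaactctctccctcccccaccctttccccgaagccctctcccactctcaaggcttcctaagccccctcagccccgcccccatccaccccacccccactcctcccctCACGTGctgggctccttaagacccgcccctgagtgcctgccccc

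The E-box was present in the windows of 11 of the 23 germline genes with a promoter sequence (47.8%) and in 4 of the 8 that were 2-fold higher in 5C-Oct4GFP+ cells. It was present in 10.2% of the 9302 measured genes that have a promoter sequence, in 9.46% of genes 2-fold higher and in 9.15% of genes 2-fold lower. A match is a description of the letters and not a site of binding. Where a gene has several starts, any window was counted.

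Other genes of DNA methylation differed in both directions. Tet1, which oxidizes 5-methylcytosine and is the main Tet enzyme of ES cells, was at 132 against 14.04 TPM, a ratio of 9.37 (8.66 to 10.2), and Dnmt3a at 97.1 against 42.9 TPM. Tet3, the form of oocytes and differentiated cells, was lower at 4.95 against 20.1 TPM, as were the methyl-CpG binding proteins Mbd2 (33.8 against 83.7 TPM) and Mbd1 (9.84 against 23.8 TPM). Of 18 genes on the list, 4 were higher (22.2%, against 7.76% of all measured genes) and 4 lower (22.2%, against 20.8%). The share of lower genes was thus close to that over all measured genes. The median difference was 0.17.

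Polycomb complexes repress developmental genes through histone H3K27 methylation and H2A ubiquitination. Their alternative subunits Cbx7 and Cbx8 stood on opposite sides of the gate. Of 30 genes, 9 were 2-fold higher (30.0%, against 7.76% of all measured genes) and 6 lower (20.0%, against 20.8%). The share of lower genes was thus close to that over all measured genes. The median of -0.08 changed sign with the scaling. The core PRC2 subunits Eed (148 against 64.9 TPM) and Suz12 (173 against 84.5 TPM) were among the higher ones. Cbx7, the chromodomain subunit of ES cells, was at 123 against 23.8 TPM, whereas Cbx8 (0.86 against 9.55 TPM), which occupies the same place in the complex in differentiated cells, was lower. Phc1 stood at 544 against 139.7 TPM, and the PRC2 cofactor Jarid2 (158 against 57.8 TPM) and the PRC1 subunit L3mbtl2 (88.6 against 27.3 TPM) were also higher. The study followed 5 epigenetic factors that promote reprogramming, chosen in part by their levels in these Oct4GFP- libraries, so they are not an independent list. Among them Kdm2b was higher in Oct4GFP+ cells (166 against 53.8 TPM) and Bmi1 lower (8.99 against 55.2 TPM, 6.14-fold, 5.12 to 7.41). Ezh2 (144 against 153 TPM), Ctcf (107 against 111 TPM) and Wdr5 (314 against 203 TPM) were below 2-fold. Of 20 measured subunits of the BAF remodelling complex 16 were below 2-fold, 1 was higher and 3 were lower. Both shares were under those over all measured genes (7.76% higher and 20.8% lower). Actl6a, the actin-like subunit of dividing progenitors, was higher (249.8 against 119 TPM), and Smarca2 (30.6 against 105 TPM), Smarcc2 (12.9 against 44.6 TPM) and Smarcd3 (4.28 against 15.04 TPM) were lower.

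Matrix and mesenchymal genes made up the other end of the ranking. Mgp, the matrix Gla protein that inhibits calcification, was at 101 TPM in 5C-Oct4GFP- cells (226 counts) without a single count in 5C-Oct4GFP+ cells, at least 101-fold lower in the latter. Ptn, a heparin-binding growth factor, was at 2.79 against 198 TPM, and the small proteoglycan Bgn at 1.92 against 133 TPM. Col6a1 (2.13 against 98.7 TPM), Col6a2 (1.36 against 62.6 TPM) and Col3a1 (1.78 against 71.7 TPM), collagen chains of connective tissue, were lower as well, Col3a1 by 40.3-fold (29.5 to 56.4). The 15 most negative genes also held glial and neural genes, namely Bcan (brevican, 0.58 against 47.4 TPM) and Gpm6b (2.76 against 93.2 TPM), the enkephalin precursor Penk (2.27 against 82.7 TPM) and the acute-phase inhibitor Serpina3n (2.29 against 87.7 TPM). Hist1h2ap, listed at 0 and 25.3 TPM, is a histone gene with near-identical copies and is uncertain.

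Genes of fibroblast identity, the type of the starting cells, were lower in 5C-Oct4GFP+ cells with little exception. Of 25 genes on the list, 21 were at 5 TPM or more in 5C-Oct4GFP- cells and 9 in 5C-Oct4GFP+ cells, and 20 differed by 2-fold, all of them lower. As most passed the minimum through the 5C-Oct4GFP- library, the median over all 25 genes, measured or not, is given, which was -2.89. Vim, the intermediate filament of mesenchymal cells, was at 333 against 2468 TPM, a ratio of 7.41 for 5C-Oct4GFP- over 5C-Oct4GFP+ (7.12 to 7.71). Thy1, a surface marker used to sort fibroblasts out of reprogramming cultures, was at 5.16 against 53.3 TPM. Fn1 (fibronectin) was the least separated, at 523 against 831 TPM. Of 24 collagen chains, 19 were at 5 TPM or more in 5C-Oct4GFP- cells and 5 in 5C-Oct4GFP+ cells, and the median over all 24 was -2.38. Of the 19 measured, 18 were lower and 1 was higher, Col18a1 at 144 against 51.98 TPM, a basement membrane chain that yields endostatin. Most of these chains passed the minimum through the 5C-Oct4GFP- library alone, so their direction follows in part from that choice. Mmp14 (22.4 against 163 TPM), Mmp2 (19.1 against 98.3 TPM) and the inhibitor Timp2 (2.65 against 62.1 TPM) were lower as well, and of the 9 metalloproteinases and inhibitors measured 5 were lower and none 2-fold higher. Integrin and laminin chains had 9 of 17 measured genes lower and 1 higher, the laminin chain Lama3 at 45.5 against 21.3 TPM.

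Contractile genes and targets of TGFβ and YAP were lower to varying degrees. Of 20 genes, 17 were measured, 11 were lower and 1 higher. The smooth muscle actins Acta2 (4.92 against 145 TPM) and Actg2 (0.58 against 27.5 TPM) differed most, followed by Axl, a receptor kinase of mesenchymal cells (10.2 against 118 TPM). Ccn1, an immediate target of YAP, remained abundant on both sides at 304 against 962 TPM, and Ccn2 (178 against 283 TPM) was below 2-fold. Amotl2, another YAP target, was level at 102 against 101 TPM, and Ajuba, a LIM protein of cell junctions, was the one gene that was higher at 103 against 47.5 TPM.

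TEAD factors, the DNA-binding partners of YAP, recognise GGAATG, and 3 promoters from this list are printed to set a gene that was lower beside ones that were not. They are chr3:145649986-145650235 (minus strand) for Ccn1, which was lower, chr9:102717554-102717803 (plus strand) for Amotl2, which was level, and chr14:54577662-54577911 (minus strand) for Ajuba, which was higher, on the same build and drawn as above. The capitals mark GGAATG or its reverse complement.
Ccn1: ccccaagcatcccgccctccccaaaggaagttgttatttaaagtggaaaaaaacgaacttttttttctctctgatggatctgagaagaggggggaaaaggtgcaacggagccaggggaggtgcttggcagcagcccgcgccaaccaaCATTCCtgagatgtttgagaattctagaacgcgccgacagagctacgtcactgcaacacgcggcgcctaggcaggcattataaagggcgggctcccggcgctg
Amotl2: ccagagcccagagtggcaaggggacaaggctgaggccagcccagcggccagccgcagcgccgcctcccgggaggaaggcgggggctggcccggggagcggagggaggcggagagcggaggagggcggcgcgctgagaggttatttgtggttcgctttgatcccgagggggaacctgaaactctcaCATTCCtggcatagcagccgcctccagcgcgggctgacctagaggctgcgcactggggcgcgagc
Ajuba: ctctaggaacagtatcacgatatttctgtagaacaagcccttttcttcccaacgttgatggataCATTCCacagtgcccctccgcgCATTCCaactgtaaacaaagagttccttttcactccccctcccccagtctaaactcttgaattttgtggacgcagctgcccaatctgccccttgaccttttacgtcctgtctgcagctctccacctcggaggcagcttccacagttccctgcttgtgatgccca

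This motif was found, on either strand, in 8 of the 13 genes of the list that have a promoter sequence (61.5%), in 4 of 5 such genes that were 2-fold lower and in Ajuba. Among all measured genes with a promoter sequence 12.8% held it, with 15.2% among lower and 15.5% among higher genes. Genes of this list with the motif thus included ones that were lower, level and higher.

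Transcription factors of the epithelial-mesenchymal transition (EMT) stood on both sides. Zeb2 (0.62 against 19.5 TPM) and Zeb1 (3.14 against 21.7 TPM), repressors of epithelial genes, were lower in 5C-Oct4GFP+ cells, as were Prrx1 (0.44 against 18.4 TPM), Twist1 (2.72 against 13.97 TPM), Foxc1 (0.14 against 5.37 TPM) and Tcf4 (15.5 against 64.5 TPM). Grhl2 (43.7 against 7.14 TPM) and Ovol2 (8.12 against 3.36 TPM), which oppose Zeb1 and maintain epithelia, were higher, while the epithelial factor Ehf was lower (4.01 against 17.6 TPM). Snai1, another repressor of E-cadherin, was at 6.34 against 13.5 TPM and did not pass 2-fold on the log2(TPM + 1) scale, whereas its relative Snai3 was higher at 8.90 against 2.47 TPM. In all, 15 of 19 factors were measured, with 3 higher and 7 lower.

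Epithelial adhesion genes were divided, with E-cadherin on the Oct4GFP+ side and N-cadherin on the Oct4GFP- side. Cdh1 (E-cadherin), the adhesion molecule of ES cells and epithelia, was at 249 TPM in Oct4GFP+ and 80.3 TPM in Oct4GFP- cells, a ratio of 3.10 (2.93 to 3.28), Cdh3 at 29.4 against 3.72 TPM, and the mesenchymal Cdh2 (N-cadherin) lower at 1.65 against 19.6 TPM. The tight junction genes Cldn4 (177 against 70.2 TPM), Cldn6 (82.2 against 25.8 TPM) and Tjp3 (34.8 against 9.21 TPM), the polarity gene Crb3 (40.5 against 11.2 TPM), the recycling GTPase Rab25 (75.2 against 25.99 TPM) and the epithelial splicing factor Esrp1 (88.5 against 27.2 TPM) were higher. The desmosomal Dsp (7.21 against 30.8 TPM) and Pkp1 (3.24 against 61.5 TPM) were lower, although Pkp2 was higher (29.5 against 13.3 TPM), and Cldn3 was a tight junction gene that was lower (13.6 against 43.3 TPM). Of 34 genes 32 were measured, 11 higher (34.4%, against 7.76% of all measured genes) and 6 lower (18.75%, against 20.8%). The median difference was 0.56.

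Keratins, the intermediate filaments of epithelia, stood mainly on the Oct4GFP- side, with 7 of 11 measured genes lower. Of these 7, 5 reached 5 TPM in the 5C-Oct4GFP- library alone, and the median over all 17 keratins, measured or not, was -0.92. Krt5 (0.94 against 43.8 TPM) and Krt14 (2.82 against 44.8 TPM), the pair of basal epidermal cells, and Krt8 (24.6 against 221 TPM) of simple epithelia were lower, Krt17 was close on both sides (121 against 139 TPM), and Krt42 alone was higher (26.7 against 1.00 TPM). Among 13 keratinocyte markers, 8 were at 5 TPM or more in 5C-Oct4GFP- cells, with Lgals7 (galectin-7) reaching 772 TPM against 74.2 TPM. The sum over these 13 was 1248 TPM among Oct4GFP- and 386 TPM among Oct4GFP+ cells.

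**Figure D3:**
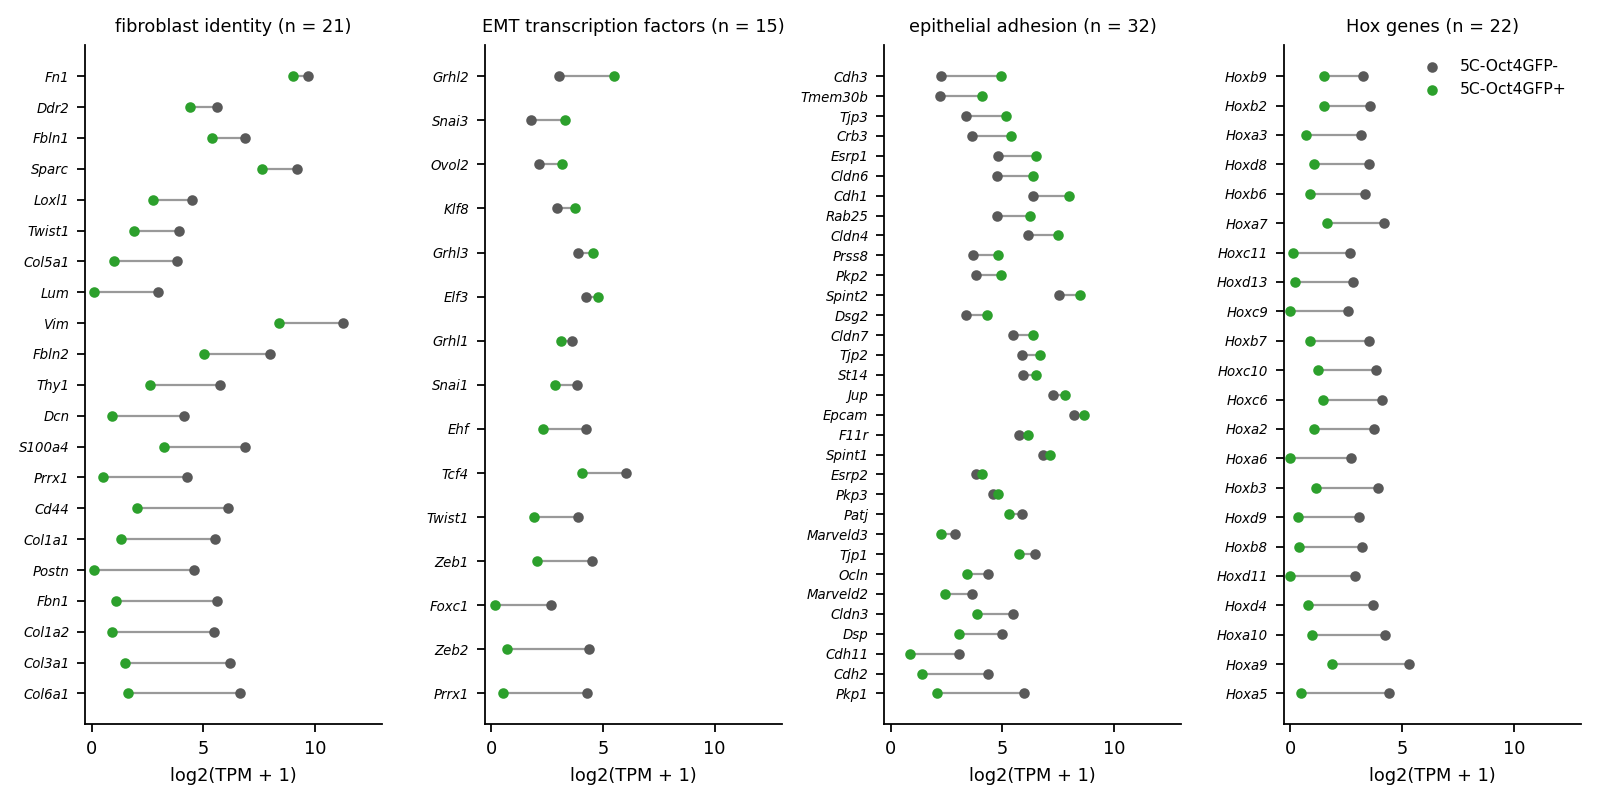
Levels in log2(TPM + 1) (x axis) in 5C-Oct4GFP- cells (grey points) and 5C-Oct4GFP+ cells (green points), 1 library each, of measured genes in 4 lists ordered by difference. Every measured fibroblast and Hox gene lies further right in 5C-Oct4GFP- cells, whereas EMT factors and epithelial adhesion genes have members on either side.

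Neural markers were mostly found in 5C-Oct4GFP- cells. Of 13 neural markers, 8 were at 5 TPM or more there and 4 in 5C-Oct4GFP+ cells, and 7 were 2-fold lower in the latter. Some of them passed the minimum through the 5C-Oct4GFP- library alone, so their direction follows in part from that choice. The median difference over all 13, measured or not, was -1.62. Sox10, the factor of neural crest and glia, was at 0.07 against 18.01 TPM, with 1 count in 5C-Oct4GFP+ cells, and the glial fatty acid binding protein Fabp7 at 1.44 against 48.7 TPM. The neural progenitor filament Nes was at 9.26 against 58.04 TPM and the dendritic protein Map2 at 7.23 against 41.2 TPM. The summed level of the 13 markers was 295 TPM among Oct4GFP- and 73.4 TPM among Oct4GFP+ cells.

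For blood and vessel cells there was little signal. Of 14 macrophage and leukocyte markers, 12 were under 5 TPM in both libraries and 8 were at 0 in both, and the 2 that were measured, Cd68 (42.7 against 20.1 TPM) and Cd14 (4.09 against 18.9 TPM), are not restricted to these cells. Of 10 endothelial markers 3 were measured, Egfl7 (50.7 against 16.6 TPM) and Vwf (25.5 against 1.91 TPM) were higher and Tek (22.7 against 40.4 TPM) was not called. Primitive endoderm markers summed to 678 TPM in 5C-Oct4GFP- cells, of which 585 TPM were Sparc, a gene that fibroblasts share. Of 13 trophoblast markers 3 were measured, with Tfap2c higher (29.4 against 8.09 TPM) and Tfap2a lower (2.08 against 15.7 TPM), and of 11 muscle markers 4 were measured, of which Tnnt2 was lower (1.58 against 19.3 TPM). The part of such cells in the levels above was not tested. None of the 14 two-cell stage genes in the tables reached 5 TPM in either library.

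Hox genes, which record the position of a cell along the body axis, were low throughout the 5C-Oct4GFP+ library. None of the 39 Hox genes in the tables reached 5 TPM in 5C-Oct4GFP+ cells, where the highest was Hoxa9 at 2.69 TPM. In 5C-Oct4GFP- cells 22 of them did, led by Hoxa9 at 38.6 TPM and Hoxa5 at 20.5 TPM, and they came from the Hoxa, Hoxb, Hoxc and Hoxd clusters alike. The sum over the 39 genes was 301 TPM among Oct4GFP- and 24.9 TPM among Oct4GFP+ cells, and the median difference over all 39 was -2.44. The 22 measured genes passed the minimum through the 5C-Oct4GFP- library, so their common direction follows from that choice.

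Within Nodal, activin and BMP signalling, the Nodal inhibitor Lefty2 was at 58.1 against 4.30 TPM, a ratio of 13.5 (9.97 to 18.8), and Nodal itself, Tdgf1 and Gdf3 (94.5 against 24.5 TPM). Tgfb3 (0.26 against 12.4 TPM), Tgfb2 (1.13 against 13.9 TPM) and the receptor Tgfbr2 (7.71 against 59.9 TPM) were lower, as was Bmp1 (3.04 against 39.04 TPM), a protease that matures collagen. Of 25 measured genes, 7 were higher (28.0%, against 7.76% of all measured genes) and 11 lower (44.0%, against 20.8%). Among FGF ligands, receptors and feedback genes, 10 of 23 were lower (43.5%), or 7 of 22 with TMM factors and 5 of 17 with FPKM. The lower ones included Fgfr3 (2.93 against 38.3 TPM), Spry4 (22.5 against 84.4 TPM) and the immediate early genes Fos (228 against 821 TPM) and Egr1 (253 against 568 TPM). The feedback genes Spry1, Spry2, Spred2, Dusp4, Dusp5, Dusp6, Etv4 and Etv5 were below 2-fold. Fgf4 and Fgf17 (5.10 against 1.16 TPM) were higher (8.70%, close to the share over all measured genes).

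Genes of LIF signalling, to which both groups were exposed, were called at shares close to those over all measured genes. Of 16 measured genes, 1 was higher (6.25% against 7.76%) and 3 were lower (18.75% against 20.8%). The median difference was close to 0 and its sign changed with the scaling. The kinase Jak2 was at 2.16 against 19.9 TPM and the oncostatin receptor Osmr at 0.87 against 11.8 TPM, whereas the LIF receptor Lifr was at 31.6 against 23.2 TPM. Stat3 itself was at 52.5 against 105 TPM, just short of 2-fold on the log2(TPM + 1) scale. In the Wnt pathway, Lef1 (31.2 against 8.99 TPM), Tcf7 (66.4 against 31.1 TPM) and Fzd7 (85.01 against 34.04 TPM) were higher. Nkd1 (0.70 against 16.2 TPM) and Fzd1 (0.86 against 13.6 TPM) were lower. Of 18 measured genes 3 were higher (16.7%, against 7.76%) and 6 lower (33.3%, against 20.8%).

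Few genes of proliferation and oxidative metabolism reached 2-fold in the 5C pair, although most lay slightly above 0. Of 37 DNA replication genes 3 were 2-fold higher (8.11%, against 7.76% of all measured genes) and none was lower (against 20.8%). Of the 37, 34 were above 0, with a median of 0.32. Of 23 mitosis genes 1 was 2-fold higher (4.35%) and none was lower. Of the 23, 22 were above 0, with a median of 0.34. Cyclin B1 (Ccnb1) was at 366 against 184 TPM and the kinase gene Bub1, the one called, at 124 against 61.2 TPM. Mki67 was the only mitosis gene below 0, at 90.8 against 158 TPM. The same lists had 29 of 37 and 21 of 23 genes 2-fold higher in the mES pair, with medians of 1.70 and 1.61. Over all genes measured in the mES pair 16.9% were higher. Among 30 genes of G1 control 10 were lower (33.3%) and 1 was higher (3.33%) in the 5C pair. The lower ones included the inhibitors Cdkn2c (1.97 against 20.2 TPM) and Cdkn1c (12.9 against 68.2 TPM), and the cyclin Ccnd2 (9.96 against 132 TPM). None of 40 respiratory chain subunits reached 2-fold, with a median of 0.08.

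Glycolysis genes were mixed in the 5C pair. Of 31 measured genes 4 were higher (12.9%, against 7.76% of all measured genes) and 6 lower (19.4%, against 20.8%). The median was 0.35. Pfkp, the platelet form of phosphofructokinase, was at 287 against 91.4 TPM, and Pdk1, which shuts pyruvate out of mitochondria, at 233 against 75.1 TPM. Ldhb (406 against 145 TPM) was higher, and Aldoc (89.01 against 247 TPM), Pfkfb3 (3.68 against 14.52 TPM) and Pdk2 (6.29 against 20.7 TPM) were lower. Gapdh, among the 5 most abundant transcripts of the Oct4GFP+ library, was at 7973 against 5680.4 TPM. In the mES pair 19 of 31 genes were lower in Oct4GFP+ cells and 1 was higher, with a median of -1.59. Hypoxia targets had 8 of 22 genes lower and none higher in the 5C pair, including Vegfa (35.6 against 97.6 TPM) and the carbonic anhydrase Car9 (0.79 against 8.73 TPM).

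Lipid handling genes included abundant transcripts with large differences, with 4 of 25 measured genes higher and 7 lower. Apoe, the lipoprotein that carries cholesterol between cells, was at 2123 TPM in Oct4GFP+ and 191 TPM in Oct4GFP- cells, a ratio of 11.1 (10.3 to 11.96), and its cluster neighbour Apoc1 at 123 against 11.9 TPM. In the mES pair Apoe was at 551 against 606 TPM. Fabp3 was higher (482 against 38.8 TPM), whereas Fabp5 (313 against 936 TPM) and Fabp4 (0 against 12.9 TPM) were lower. All 24 genes of cholesterol synthesis were lower in 5C-Oct4GFP+ cells, but only 5 of them by 2-fold, which is the share of lower genes among all those measured (20.8%), with a median of -0.59. With median-ratio or TMM factors 2 of the 24 were called lower. Of 22 genes of serine and one-carbon metabolism 2 were higher and 2 lower (9.09% each, against 7.76% and 20.8% of all measured genes). The higher ones, both of the glycine cleavage system, were Gldc at 144 against 40.8 TPM and Amt at 59.3 against 18.3 TPM. Of 16 ATF4 stress genes 3 were higher and 3 lower (18.75% each, against the same shares). They included Chac1 (26.2 against 5.99 TPM) and Trib3 (38.7 against 13.3 TPM) on the higher side. The cystine carrier Slc7a11 (2.31 against 23.2 TPM) was on the lower side. Among 20 glutathione S-transferases 2 were higher and 5 lower. Mgst1 was lower at 40.4 against 413 TPM and Gstp2 higher at 602 against 134 TPM, although Gstp2 shares reads with its near copy Gstp1.

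No measured gene of antigen presentation or the interferon response was 2-fold higher in 5C-Oct4GFP+ cells. B2m, the light chain of MHC class I, was at 60.3 against 310.0 TPM and the heavy chain gene H2-K1 at 44.9 against 232 TPM, the latter with close paralogs. Of 16 measured antigen presentation genes 6 were lower (37.5%, against 20.8% of all measured genes). All 16 reached 5 TPM in 5C-Oct4GFP- cells and 13 did in 5C-Oct4GFP+ cells. The median difference over all 17, measured or not, was -0.81. Of 19 measured interferon response genes 9 were lower (47.4%). All 19 reached 5 TPM in 5C-Oct4GFP- cells and 14 did in 5C-Oct4GFP+ cells, and the median over all 26, measured or not, was -1.10. Some genes of both lists thus passed the minimum through the 5C-Oct4GFP- library alone, so their direction follows in part from that choice. The RNA sensor Ifih1 was at 0.52 against 10.2 TPM and Irf7 at 2.33 against 12.5 TPM, while the abundant Ifitm3 was at 1053 against 1517 TPM. S100 proteins and annexins, calcium-binding proteins of adhesive cells, had 12 of 17 measured members lower, such as S100a4 (8.40 against 115 TPM) and Anxa5 (38.4 against 291 TPM).

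Imprinted genes were mostly lower in 5C-Oct4GFP+ cells, with 13 of 23 measured lower and 1 higher. The growth factor Igf2 was at 5.94 against 95.03 TPM, its imprinted neighbour H19 at 49.6 against 297 TPM and Dlk1 at 2.33 against 36.3 TPM. Transcripts of the Dlk1-Dio3 region that are read from the maternal copy, Meg3 (1012 against 767 TPM) and Rian (1199 against 1061 TPM), were abundant on both sides and below 2-fold. Phlda2, a growth-restraining gene of placenta, was the one that was higher, at 26.6 against 10.3 TPM. 

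Of 17 splicing regulators 4 were lower and 1, Esrp1, was higher, shares close to those over all measured genes (20.8% and 7.76%). Mbnl1 (11.2 against 61.6 TPM) and Mbnl3 (2.36 against 13.3 TPM) were at the lower end together with Celf2 (2.05 against 9.14 TPM) and Ptbp2 (19.5 against 42.7 TPM). Of 10 measured oncofetal genes 2 were higher (20.0%, against 7.76%) and 2 lower (20.0%, against 20.8%). The RNA-binding protein Igf2bp1 was at 76.95 against 20.9 TPM and the chromatin protein Hmga1 at 1224 against 927 TPM.

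**Figure D4:**
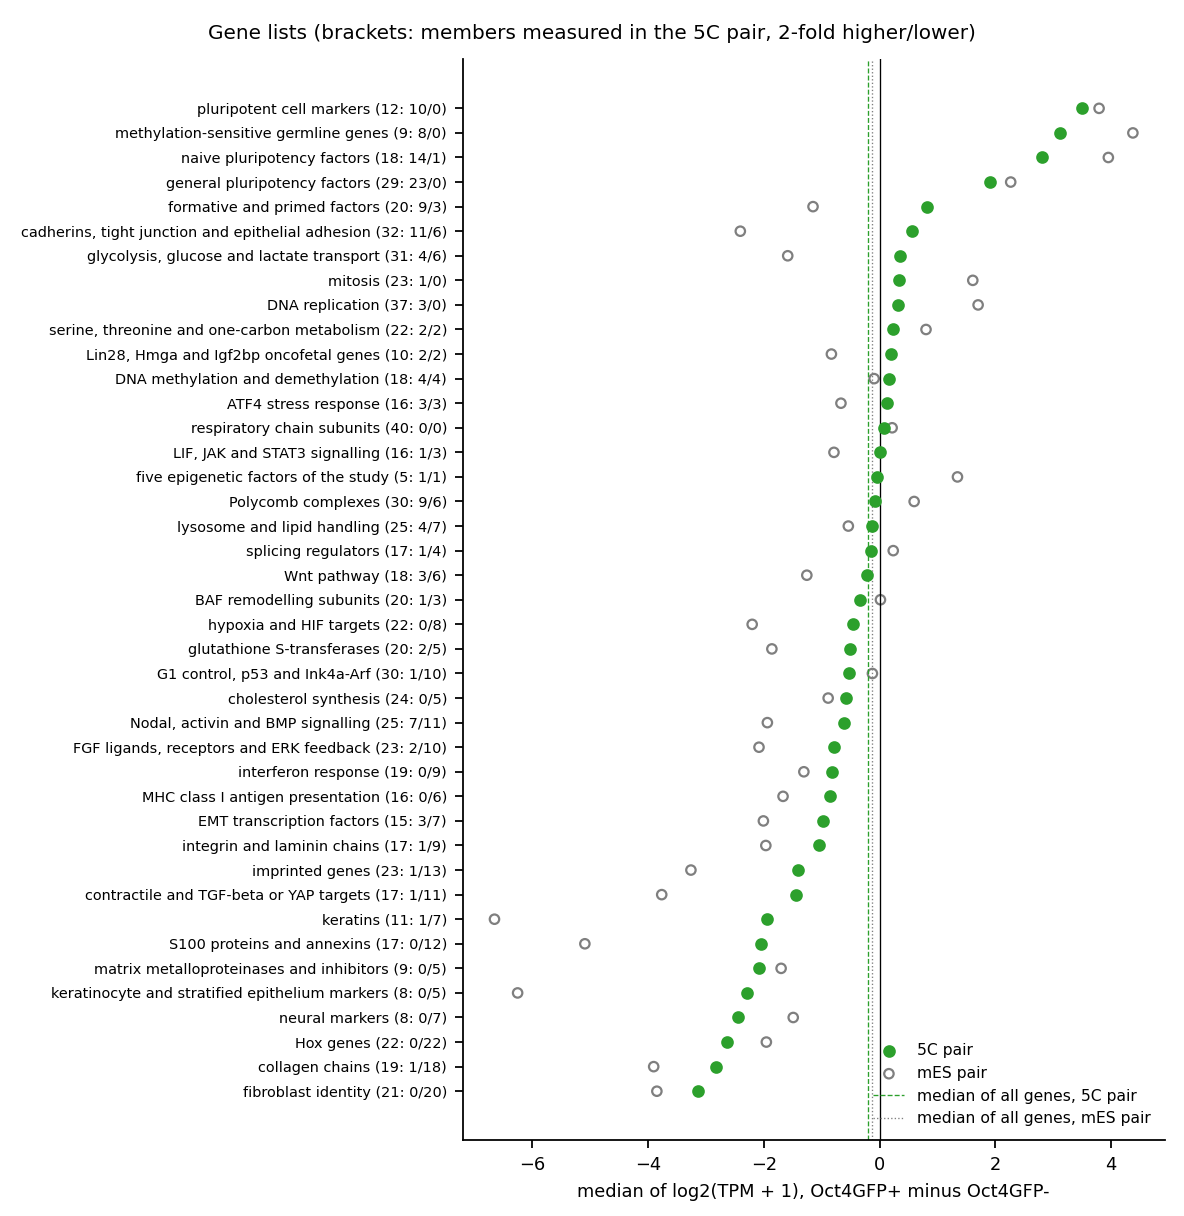
Median difference of log2(TPM + 1), Oct4GFP+ minus Oct4GFP- (x axis), for each gene list with at least 5 measured members, in the 5C pair (filled points) and the mES pair (open points). Brackets give the members measured in the 5C pair and how many were 2-fold higher and lower; dashed and dotted lines mark the median of all genes. Formative factors, epithelial adhesion and glycolysis have medians above 0 in the 5C pair and below 0 in the mES pair.

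The same sort in mES medium gave a wider separation. There 2128 of 12567 measured genes (16.9%) were 2-fold higher and 3511 (27.9%) lower in Oct4GFP+ cells, and over the 11498 genes measured in both pairs the differences had an SD of 1.10 in the 5C pair and 1.73 in the mES pair. No library is common to both pairs. Of the 941 genes higher in the 5C pair, 568 were also higher in the mES pair, which is 60.4% of the 5C genes and 26.7% of the mES genes. Of the 2517 lower genes 1634 were shared, 64.9% of the 5C genes and 46.5% of the mES genes. Opposite calls were few, with 64 genes higher in the 5C pair and lower in the mES pair and 72 the reverse.

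Genes higher in 5C-Oct4GFP+ but lower in mES-Oct4GFP+ cells than in their Oct4GFP- partners were led by Otx2, at 189 against 26.5 TPM in the 5C pair and 0.41 against 40.1 TPM in the mES pair. In the primed lines of the series Otx2 was at 214 and 134 TPM and in the naive line at 1.15 TPM. Myrf, a membrane-bound transcription factor, was at 60.3 against 10.3 TPM and 0.37 against 21.7 TPM, and Esrp1 at 88.5 against 27.2 TPM and 0.82 against 49.2 TPM. Of the epithelial adhesion list, Cldn6 (11.1 against 166 TPM in the mES pair), Crb3 (5.00 against 39.1 TPM) and Tmem30b (0.94 against 5.44 TPM) were of this kind, as were the glycolytic Pfkp (70.00 against 263 TPM) and Pdk1 (28.7 against 162 TPM). Gm26602 shares 284 of its 285 exon bases with R3hdm4 on the other strand, and Spink10 had an interval that included 1 in the 5C pair (0.856 to 213), so both are uncertain.

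Among the 72 genes of the reverse kind, En2, a homeobox gene of the midbrain, was at 3.69 against 55.6 TPM in the 5C pair and 10.8 against 0.92 TPM in the mES pair, and Cnpy1 at 14.3 against 119 TPM and 56.2 against 9.03 TPM. Gad1, which makes GABA, was at 1.85 against 8.14 TPM and 16.6 against 0.27 TPM, Kit, the stem cell factor receptor, at 5.08 against 13.6 TPM and 122 against 10.4 TPM, and Aldh1a2, which makes retinoic acid, at 1.36 against 8.34 TPM and 16.4 against 0.83 TPM.

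Large gaps between the media also came from genes that were not called in opposite directions. Slc16a3, the lactate exporter Mct4, was at 154 against 89.7 TPM in the 5C pair and 2.22 against 406 TPM in the mES pair. The immediate early gene Egr1 was at 0.32 against 500.1 TPM in the mES pair, Krt17 at 0 against 149 TPM and the carbonic anhydrase Car4, at 0 against 214 TPM. Car4 was at 80.4 against 108 TPM in the 5C pair. In the other direction Crxos, a homeobox gene of early embryos, was at 18.2 against 1.72 TPM in the 5C pair and 625 against 0.91 TPM in the mES pair.

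**Figure D5:**
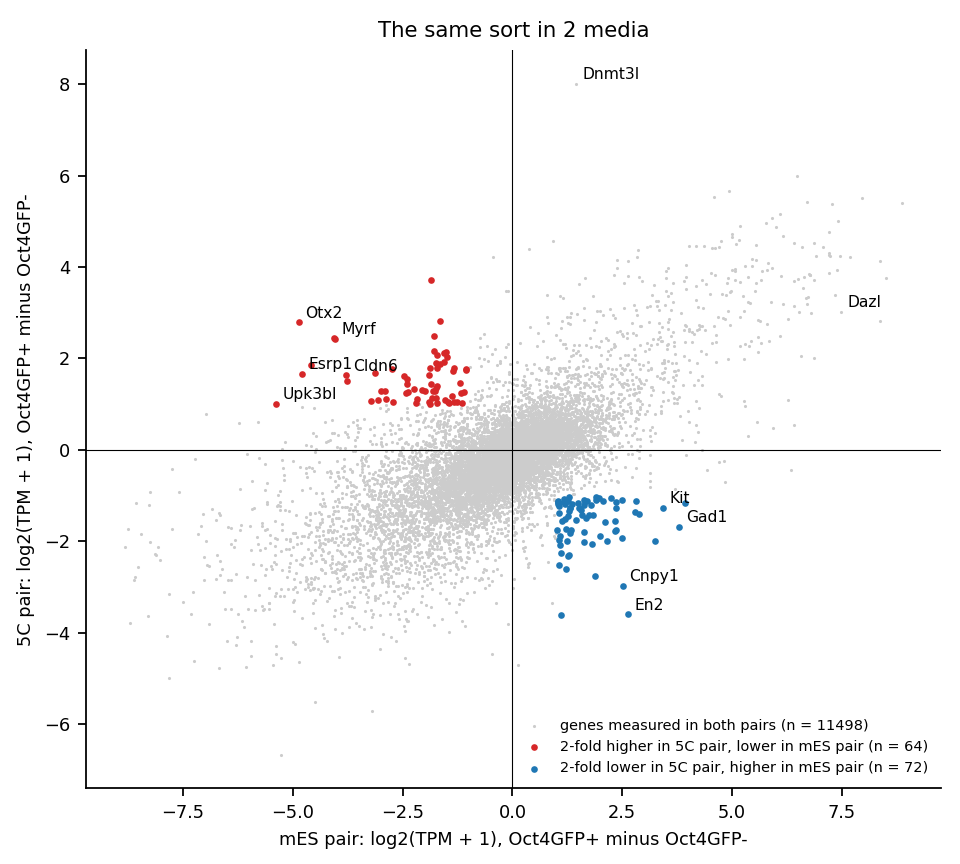
Difference of log2(TPM + 1), Oct4GFP+ minus Oct4GFP-, in the mES pair (x axis) and the 5C pair (y axis) for 11498 genes measured in both. Red points are 64 genes 2-fold higher in the 5C pair and lower in the mES pair, blue points the 72 of the reverse kind. Otx2, Myrf and Esrp1 lie to the upper left, En2 and Cnpy1 to the lower right, and Dnmt3l stands alone at the top.

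At the 2-fold threshold itself, Mutyh (36.6 against 17.8 TPM) was just counted as higher and Srxn1 (21.8 against 10.4 TPM) just not, and Fgfr1op2 (48.8 against 98.6 TPM) was just counted as lower and Pik3c2a (11.2 against 23.4 TPM) just not. The most abundant transcripts were largely common to both libraries, with Eef1a1 (14833 against 17298 TPM), Ppia (8215 against 6783 TPM) and Rplp1 (8276 against 6549 TPM) in the first 5 of each. Gm42418, an rRNA-like locus, was at 2593 against 6124 TPM. Its part in the other levels was not tested.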

How the data were processed

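mRNA-Seq libraries were made with an Illumina TruSeq RNA kit, which does not mark the strand. Per the submitters' processing notes, Bowtie and RSEM were used with mm10, with versions not given in the sources used here. For each library the authors deposited one RSEM gene table with expected counts, TPM and FPKM, the deposited TPM being scaled to transcript length and library and the deposited FPKM to the same without a fixed total. The authors' expected counts can be fractional where reads map to several genes. Gene identifiers were matched to symbols through a gene name table (28756 of 29267), and promoter windows came from RefSeq on GRCm38.p6.

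From these files the difference of log2(TPM + 1) was computed with Python 3.11.15, pandas 2.3.3 and scipy 1.17.1, among genes with at least 5 TPM in either library, and genes at 2-fold or more were counted. Ratios of TPM carry exact 95% Clopper-Pearson intervals from the expected counts, with a floor of 3 counts for a library at 0, which cover counting error only. With 1 library per group no test across samples was made, and the counts limit only how precisely a library was read. For the gene of median length, 1 read stood for 0.104 TPM in the Oct4GFP+ library and 0.139 TPM in the Oct4GFP- library. Alternatives were a pseudocount of 0.1, other minima, a 4-fold threshold, FPKM, a count minimum of 10, an interval bound beyond 2-fold, and rescaling by median-ratio factors or by TMM on rounded expected counts (edgeR 4.0.16 in R 4.3.3). The scripts were tested on simulated data.

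Groups were taken from the sample titles. Members and the 48 gene lists were chosen with earlier results of these data known, and some genes stand on more than one list. Named genes were the 15 largest differences in each direction, all members of the pluripotency, EMT and epigenetic factor lists, the 4 most extreme members of every other list in each direction with its most abundant member, the 8 largest gaps between media in each direction, the genes nearest the threshold and the 5 most abundant in each library. The rule also named, in each direction, the 8 genes with the largest gap among those called in opposite directions in the sorted pairs. Ccn2, Cdh1, Cldn3, Cldn4, Eed, Gm42418, Pkp2, Rab25, Rhox2a, Suz12, Sycp3, Tex101 and Thy1 fall outside this rule and were chosen after their values were seen.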

Additional observations from a re-analysis of the deposited data

Results flagged for a closer look

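With 1 library per group, the results singled out were those that pointed in opposite directions in the sorted pairs of the 2 media. They comprise 30 of the genes named by the rule or outside it, 19 of them at least 2-fold higher in 5C-Oct4GFP+ and 2-fold lower in mES-Oct4GFP+ cells and 11 the reverse, and 5 gene lists with at least 5 measured members in each pair whose medians lay on opposite sides of 0 and at least 1 apart on the log2 scale. Some of these genes were named because of such opposite calls, so their number follows in part from that rule. Each value is the difference of log2(TPM + 1) in the 5C pair minus that in the mES pair, and in every case the difference was not tested.

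Among transcription factors and signalling genes higher in 5C-Oct4GFP+ cells, the gap was 7.66 for Otx2, 6.49 for Myrf and 4.29 for the Wnt receptor Fzd7. Epithelial genes had gaps of 6.45 (Esrp1), 5.41 (Cldn6), 4.50 (Crb3), 5.26 (Rab25), 3.63 (Tmem30b), 3.57 (Cldn4) and 6.39 (Upk3bl). The gaps of the glycolytic genes were 4.08 for Pdk1 and 3.53 for Pfkp. For matrix genes they were 3.30 for Col18a1 and 2.31 for the laminin chain Lama3. The others were the phosphatase Ppm1j (5.55), the imprinted Phlda2 (4.20), the lysosomal Cd68 (2.94), Gm26602 (6.47) and Spink10 (6.46). Gm26602 lies almost wholly within exons of R3hdm4 on the other strand, and Spink10 rests on about 1 count in 5C-Oct4GFP- cells.

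In the reverse set, the gaps were -6.22 for En2, -5.49 for Cnpy1, -5.47 for Gad1 and -2.94 for Tubb3. The gap was -5.24 for Aldh1a2, -4.69 for Kit, -3.08 for Hoxb9 and -3.18 for the matrix protein Fbln1. It was -5.09 for Ppp1r14d, -4.73 for Mtss1l and -4.66 for 2510009E07Rik.

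Of these 5 lists, epithelial adhesion had a gap between medians of 2.97, formative and primed factors of 1.98 and glycolysis of 1.94. Oncofetal genes had a gap of 1.04. The 5 epigenetic factors followed by the study had a gap of -1.39, with a median in the 5C pair close to 0 whose sign changed with the scaling. The study picked these factors partly for their Oct4GFP- levels, which were greater in 5C medium. That choice alone pushes the gap downward, so the gap is not an independent result.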

How the results depend on the processing

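The main limits are the single library per group, the scaling and the minimum level. The 941 higher and 2517 lower genes became 1010 and 2702 with a pseudocount of 0.1, 1324 and 3538 with a minimum of 1 TPM, 846 and 1690 with FPKM, 1151 and 2058 with median-ratio factors and 1319 and 1850 with TMM factors. At 4-fold they were 366 and 860, of which 63.7% and 58.5% were called in the same direction in the mES pair. When the interval bound nearest to 1 also had to reach 2-fold, 703 higher and 2000 lower genes remained. With a minimum of 10 counts in either library 931 and 2510 remained. Rescaling moved the list medians of DNA replication to 0.49 (median-ratio) and 0.58 (TMM), mitosis to 0.60 (TMM), respiratory chain to 0.25 (median-ratio) and 0.34 (TMM), cholesterol synthesis to -0.33 (TMM), and splicing regulators to 0.0147 (median-ratio) and 0.10 (TMM), or -0.0314 with FPKM. The median of the germline genes measured moved to 4.76 with the smaller pseudocount and 1.87 at 1 TPM. That of the Hox genes measured moved to -3.62 with the smaller pseudocount, -2.50 at 1 TPM, -2.51 with median-ratio factors, -2.44 with TMM and -2.22 with FPKM. The median of primitive endoderm markers moved to -1.21 at 1 TPM. The cause was not tested. Of the 283 calls among 429 named genes, none was lost and 8 were gained with the smaller pseudocount. With median-ratio factors 9 were lost and 9 gained, with TMM 14 and 17, and with FPKM 9 and 7. None of the 283 calls changed direction under these 4 settings, which were the ones computed gene by gene. No paired analysis was possible because each group has 1 library, and no replicate could be left out.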
